A study of Mus musculus with 8 samples.

Results

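Vascular smooth muscle cells (VSMCs) made up 234 of 28671 cardiac cells that had been sorted as CD31+, Confetti+ and podoplanin- from 4 healthy hearts and 4 hearts taken 7 days after myocardial infarction (MI). They were chosen by their own transcripts, as cells with at least 1 unique molecular identifier (UMI, 1 counted transcript) of Myh11, at least 3 of Acta2, at least 3 of Tagln and 0 of Ptprc, so the levels of these genes are descriptions and were not tested. All mice were adult, 8 to 10 weeks old at the start and of either sex, and were heterozygous for Pdgfb-iCreERT2 and R26R-Brainbow2.1, a tamoxifen-dependent Cre under the Pdgfb promoter and a multicolour reporter. Every mouse, healthy ones included, received 1 dose of 150 mg/kg tamoxifen and was taken 21 days later. In the MI group the left anterior descending coronary artery was permanently ligated 14 days after tamoxifen, and the healthy group had no ligation. The Confetti label marks cells in which the Pdgfb promoter was active at the time of tamoxifen and their progeny, and the sort asked for an endothelial surface protein, so the VSMCs here are those that passed an endothelial gate and need not stand for the VSMCs of the heart. Each mouse gave 1 droplet library, and mice are named by group and number (Healthy 227, 228, 239 and 240, MI 244, 250, 255 and 256).

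VSMCs form the muscular wall of arteries and arterioles. They shorten when calcium activates myosin light chain kinase, which phosphorylates the light chain of smooth muscle myosin, and they relax when nitric oxide from the endothelium raises cyclic GMP. Their contractile genes are driven by serum response factor with its partner myocardin at a DNA element called the CArG box. After injury VSMCs can lower these genes and turn to matrix production, a change known as phenotypic switching. Pericytes, the mural cells of capillaries, share Rgs5, Pdgfrb and Notch3 with VSMCs and carry little of the contractile apparatus.

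Some cells were present in more than 1 library of the healthy group, and this was dealt with first. Healthy 228 shared 2041 cell barcodes with Healthy 239, and Healthy 227 shared 316 with Healthy 228. The copy in the first-named library was left out, which took 31028 deposited cells to 28671. Of the 84 VSMCs of Healthy 239, 81 had their barcode in Healthy 228 as well, where the copy held a median of 41.0% of the UMIs and 52 copies passed the rule on their own. Of the 6 VSMCs of Healthy 228, 4 had their barcode in Healthy 227, with a median of 19.6% of the UMIs. Which of the 2 mice such a cell came from was not tested, so the cells of Healthy 239 and Healthy 228 carry this doubt into every healthy value below.

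The share of VSMCs among the kept cells did not separate the groups. It was 0.452% in Healthy 227 (11 cells), 0.369% in Healthy 228 (6 cells), 2.21% in Healthy 239 (84 cells) and 0.307% in Healthy 240 (10 cells). It was 0.392% in MI 244 (18 cells), 0.724% in MI 250 (37 cells), 0.633% in MI 255 (27 cells) and 1.14% in MI 256 (41 cells). Healthy 239 stood far above every other mouse, while Healthy 227 lay within the MI range, and Healthy 228 and Healthy 240 lay below it. The exact 95% binomial interval ran from 1.76 to 2.72% in Healthy 239 and from 0.135 to 0.8% in Healthy 228, which covers counting error only. The means were 0.834 ± 0.917% (SD, n = 4) in the healthy and 0.724 ± 0.314% (SD, n = 4) in the MI group, a difference of -0.110 percentage points (two-sided exact permutation test over 70 splits, p = 0.971, smallest possible p = 0.0286). Without Healthy 239 the difference was 0.348 points (exact permutation p = 0.114), and without MI 244 it was 0.00045 points (exact permutation p = 1). As a share of VSMCs and Rgs5 cells together, VSMCs made up 19.4 ± 18.5% (SD, n = 4) in healthy and 23.6 ± 4.80% (SD, n = 4) in MI mice (exact permutation p = 0.714).

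**Figure D1:**
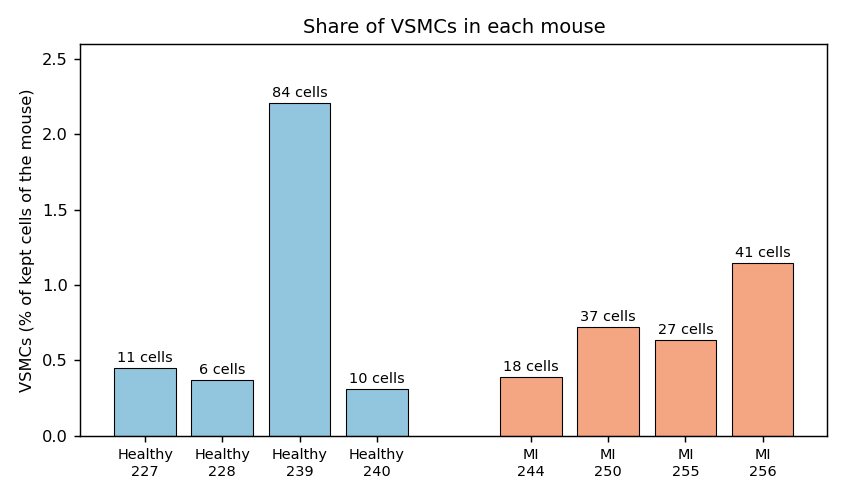
Share of VSMCs among the kept cells of each mouse (bar height, percent; number of VSMCs above each bar), healthy mice in blue and MI mice in orange. Healthy 239 reached 2.21% and the other 7 mice lay between 0.307% and 1.14%.

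The threshold on Myh11 ran through a continuous range of cells. Just inside it, 29 VSMCs held 1 UMI of Myh11 and summed to 1197 UMIs of Tpm2 and 1234 of Myl9 per 1000000 UMIs (CPM). The 205 VSMCs with 2 or more UMIs of Myh11 reached 2979.9 CPM of Tpm2 and 2653 CPM of Myl9. Just outside, 46 cells had 0 UMIs of Myh11 but passed for Acta2 and Tagln, with 584 CPM of Tpm2 and 552 CPM of Myl9. Another 15 cells had Myh11 but 2 UMIs of Acta2 or Tagln, and 3 cells failed through Ptprc, the pan-leukocyte phosphatase, alone. Tpm2 and Myl9 were therefore lower on both sides of the threshold than in the bulk of the VSMCs.

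Tpm2 (beta-tropomyosin) and Myl9 (the regulatory light chain of smooth muscle myosin), muscle genes that the rule did not use, bore out the label. Tpm2 was found in 98.3% of VSMCs with a median of 15 and a highest value of 88 UMIs per cell, and Myl9 in 99.1% with a median of 14 and a highest value of 65. The rule genes themselves had medians of 39.5 UMIs for Acta2 (smooth muscle actin), 13 for Tagln (transgelin) and 5 for Myh11 (smooth muscle myosin heavy chain). In 21986 other kept cells, with a median of 3565 UMIs, 2.58% held a UMI of Tpm2, 2.80% of Myl9 and 0.578% of Myh11. After every cell was thinned to 1000 UMIs, Tpm2 was found in 84.6% of VSMCs and 0.648% of the other cells. Of the mural genes, Rgs5 (a regulator of G protein signalling) was found in 98.3% of VSMCs, Notch3 in 85.5% and Pdgfrb in 73.9%. Des (desmin) was found in 91.0%, Lmod1 (leiomodin) in 79.9%, Cnn1 (calponin, a marker of mature contractile cells) in 22.6% and Kcnj8, a channel subunit typical of pericytes, in 8.97%.

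Endothelial transcripts were also present in nearly all VSMCs. Fabp4, a fatty acid carrier of capillary endothelium, was found in 99.6% of VSMCs, Pecam1, which encodes CD31, in 69.7% and Cdh5 in 65.0%. The summed level of Pecam1, Cdh5, Kdr and Tie1 in VSMCs, as a percentage of that in the endothelial cells of the same mouse, was 34.6, 33.5, 23.9 and 22.8% in the 4 healthy and 44.1, 33.2, 40.2 and 36.9% in the 4 MI mice. The MI mice lay mostly higher, with 1 MI mouse within the healthy range (28.7 ± 6.23 against 38.6 ± 4.64%, SD, n = 4 each, exact permutation p = 0.0857). 69 VSMCs held at most 1 UMI of these 4 genes. Whether the endothelial transcripts came from free RNA, from 2 cells in a droplet or from the VSMCs themselves was not tested.

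VSMCs were compared with 2 groups of cells from the same mice. Endothelial cells (19207 cells) had at least 1 UMI each of Pecam1 and Cdh5 and none of Ptprc, Myh11, Rgs5, Acta2 or Tagln. The other group (744 cells, 51 to 114 per mouse) had at least 2 UMIs of Rgs5 and none of Myh11, a rule meant for pericytes. Unlike the rules for VSMCs and endothelial cells, it did not ask for 0 UMIs of Ptprc. Of the endothelial level of the 4 endothelial genes, these cells held 84.7, 78.5, 65.5 and 68.1% in the healthy and 83.2, 82.9, 91.7 and 90.1% in the MI mice. The MI mice lay mostly higher, with Healthy 227 above MI 244 and MI 250. Such levels go against the name of pericytes, and the cells are called Rgs5 cells here. VSMCs had more UMIs per cell than either group. The rules fix part of this, since they ask VSMCs for several UMIs of muscle genes, which deep cells hold more often, and the other groups for 0 UMIs of such genes, and how large that part is was not tested. The VSMC median was 5286 UMIs per cell in the healthy and 6598 in the MI group, against 2793 and 4759 in Rgs5 cells and 2325 and 4244 in endothelial cells. Per mouse, the VSMC median was 2.44 ± 0.217 times the endothelial median in healthy and 1.59 ± 0.0525 times after infarction (SD, n = 4 each, exact permutation p = 0.0286), and no MI mouse overlapped a healthy one. Endothelial cells had more UMIs in MI than in healthy mice (4259 ± 558 against 2416 ± 367, SD, n = 4 each, exact permutation p = 0.0286), and VSMCs differed less (6770 ± 828.7 against 5900 ± 1058, exact permutation p = 0.257). The depth of the cells compared therefore moved with the condition, and its part in the differences below was not tested beyond the thinned alternatives.

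For tests across genes, UMIs were summed per mouse over the cells of each group, and mice with at least 10 VSMCs entered, which left out Healthy 228 with its 6 cells. The sums of VSMCs held 53670 to 456366 UMIs in the 3 healthy mice tested and 140040 to 286953 in the 4 MI mice. Values below are CPM of these sums, fold changes are log2 values ± their standard error, and p-values were adjusted over all genes tested. A gene is called higher or lower where its adjusted p was under 0.05. Because the cells were sorted into groups by muscle and endothelial transcripts, other genes of these cell types were bound to differ between the groups. Those p-values set the size of a difference against its variation between mice, counting error included. They are not a measure of how steady it was over mice.

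The contractile apparatus stood far above the endothelial level in the VSMCs of each mouse. Of its 34 genes, 28 could be tested against endothelial cells, 26 were higher, 0 were lower and 2 were not called, with a median log2 difference of 2.54 against -0.10 over all genes tested. Across all 10234 genes, 1465 (14.3%) were higher and 1831 (17.9%) lower in VSMCs. Against Rgs5 cells 22 of 26 were higher and 0 lower (median 2.32), where 714 of 4466 genes (16.0%) were higher and 743 (16.6%) lower. Acta2 summed to 3842, 4544, 8419 and 10602 CPM in Healthy 227, 228, 239 and 240 and to 6677, 8165, 5994 and 6811 CPM in MI 244, 250, 255 and 256. Myh11 summed to 1087, 489, 969 and 988 CPM in the same healthy mice and to 764, 903, 741 and 926 CPM in the MI mice. Both genes overlapped between the groups, and Acta2 was lowest in Healthy 227 and highest in Healthy 240. Tpm2 summed to 1238, 2076, 3225 and 3913 CPM in the healthy and 2649, 3000.5, 2117 and 2819 CPM in the MI mice, against a mean of 5.005 CPM in endothelial and 127 CPM in Rgs5 cells. Its log2 difference was 9.01 ± 0.18 from endothelial cells (adjusted p = 1.3e-48) and 4.35 ± 0.19 from Rgs5 cells (adjusted p = 9.85e-13).

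Lmod1, which nucleates actin filaments in smooth muscle, was among the genes that set VSMCs most apart. It summed to 240.1, 293, 359 and 447 CPM in the healthy and 236, 321, 344 and 287 CPM in the MI mice, while 16 UMIs were counted in all endothelial cells (0 to 0.667 CPM). The lowest VSMC value was thus far above the highest endothelial one (10.41 ± 0.24, adjusted p = 1.51e-45). Mylk, the myosin light chain kinase, reached 877 ± 214 CPM (SD, n = 8) in VSMCs against 36.8 ± 7.09 in endothelial cells (4.59 ± 0.13, adjusted p = 1.33e-39). Des, the intermediate filament of muscle, reached 517 ± 124 CPM against 3.24 ± 1.58 (7.12 ± 0.18, adjusted p = 9.65e-43). Genes of the list that are used in most cells differed less: Myl6, the light chain that non-muscle myosin shares, by 0.88 ± 0.11 (adjusted p = 9.84e-10) and Cnn2 by 0.41 ± 0.13 (adjusted p = 0.0129). Smtn (smoothelin) at 0.20 ± 0.16 (adjusted p = 0.389) and Pdlim7 at 0.36 ± 0.16 (adjusted p = 0.0902) were the 2 that were not called.

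The regulatory light chain Myl9 did not overlap between the groups of cells in any mouse and is shown with its promoter. It summed to 1605, 977, 2708 and 3074 CPM in the healthy and 2549, 2788, 2162 and 2499 CPM in the MI mice, with 46.1 to 266 CPM in Rgs5 cells and 3.02 to 12.2 CPM in endothelial cells, and the order of the 3 groups held over all mice. It differed by 8.68 ± 0.17, adjusted p = 4.65e-49, from endothelial cells and by 4.56 ± 0.20, adjusted p = 1.2e-12, from Rgs5 cells. The gene lies at chr2:156775420-156781658 on the plus strand of GRCm38, Acta2 at chr19:34241090-34255590 on the minus strand, Tagln at chr9:45929619-45936058 on the minus strand, Myh11 at chr16:14194535-14291372 on the minus strand and Tpm2 at chr4:43514711-43523765 on the minus strand. Of 29 genes of the list with a promoter in the RefSeq table (GRCm38.p6, 250 bases before to 50 after the start), 5 held a CArG box (Cnn2, Filip1l, Myl6, Myl9 and Vcl), against 488 of all 27025 genes in the table (1.81%). The search covered both strands, and a match is a description of the letters and no evidence that a factor binds. The promoters of 3 genes that were higher than in endothelial cells are printed with the CArG box in capitals. It starts 161 bases before the start of Myl9, 56 before that of Cnn2 and 62 before that of Filip1l.

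Myl9 (chr2:156775214-156775513, plus strand): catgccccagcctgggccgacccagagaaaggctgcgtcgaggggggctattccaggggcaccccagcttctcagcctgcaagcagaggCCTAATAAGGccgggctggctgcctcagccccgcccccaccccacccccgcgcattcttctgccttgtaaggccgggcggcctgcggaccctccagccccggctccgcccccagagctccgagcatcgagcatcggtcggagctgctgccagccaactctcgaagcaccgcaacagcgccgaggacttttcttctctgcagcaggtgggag

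Cnn2 (chr10:79988350-79988649, plus strand): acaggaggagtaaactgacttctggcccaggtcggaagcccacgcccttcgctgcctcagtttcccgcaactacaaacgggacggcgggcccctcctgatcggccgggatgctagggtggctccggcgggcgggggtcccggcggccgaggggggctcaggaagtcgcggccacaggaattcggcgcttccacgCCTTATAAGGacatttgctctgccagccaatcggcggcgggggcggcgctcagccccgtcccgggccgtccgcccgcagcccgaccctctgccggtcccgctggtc

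Filip1l (chr16:57548992-57549291, plus strand): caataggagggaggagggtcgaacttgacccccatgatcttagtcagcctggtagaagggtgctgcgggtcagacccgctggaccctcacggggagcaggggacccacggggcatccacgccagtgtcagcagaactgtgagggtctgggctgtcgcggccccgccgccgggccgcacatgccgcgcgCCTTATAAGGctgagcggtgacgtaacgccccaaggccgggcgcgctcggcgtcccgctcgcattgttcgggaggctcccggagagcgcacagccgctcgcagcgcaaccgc

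**Figure D2:**
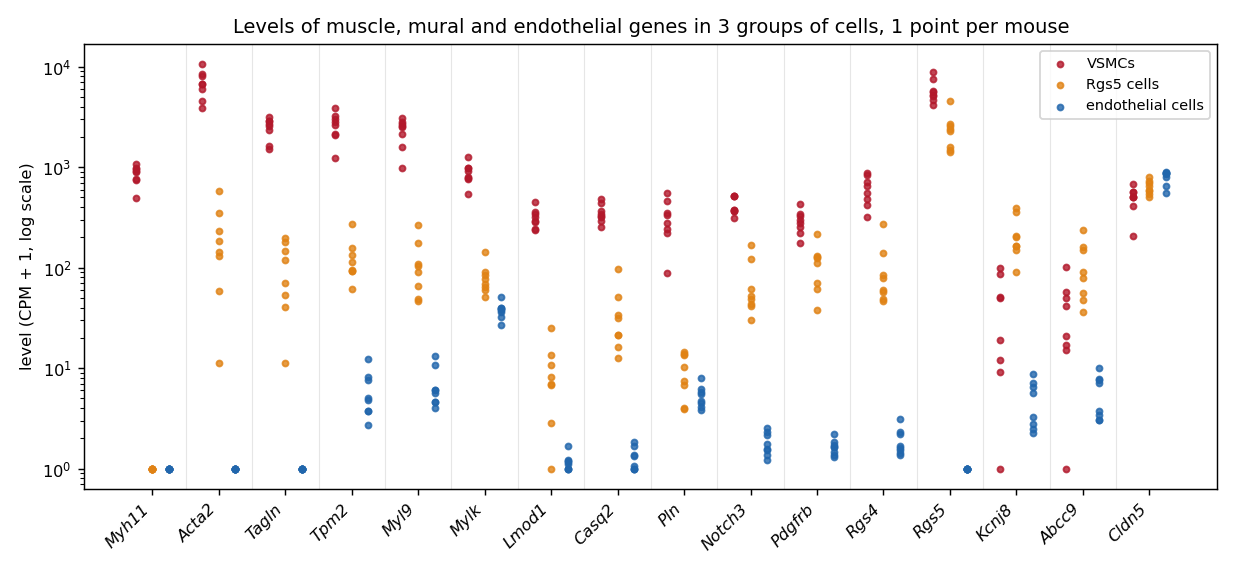
Levels of 16 genes (CPM + 1, log scale) in VSMCs (red), Rgs5 cells (orange) and endothelial cells (blue), 1 point per mouse and group of cells. Tpm2, Myl9, Mylk and Lmod1 do not overlap between VSMCs and the other groups. Kcnj8 lies mostly higher in Rgs5 cells, and the genes of the rules (Myh11, Acta2, Tagln and Rgs5) sit at 0 CPM where the rule demanded it.

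Genes that handle calcium and cyclic GMP were higher in VSMCs with few exceptions. Against endothelial cells 13 of 15 tested were higher and 1, the natriuretic peptide receptor Npr1, was lower, with a median log2 difference of 6.25. Against Rgs5 cells 10 of 13 were higher and 3 lower (Npr1, Kcnj8 and Abcc9). Pln (phospholamban, which restrains calcium uptake into the store) summed to 88.5, 244, 458 and 559 CPM in the healthy and 336, 275, 219 and 348 CPM in the MI mice. Healthy 227 was the lowest and Healthy 240 the highest, and all 8 mice lay above the Rgs5 cells (2.89 to 13.6 CPM) and the endothelial cells (2.82 to 7.05 CPM). Pln had the largest difference of the named genes from Rgs5 cells (5.45 ± 0.21, adjusted p = 3.8e-13). Casq2, the calcium buffer of the store, reached 352 ± 75.7 CPM (SD, n = 8) against 0.286 in endothelial cells (10.24 ± 0.24, adjusted p = 4.91e-45). The subunits of the nitric oxide receptor guanylate cyclase, Gucy1a3 and Gucy1b3, averaged 654 and 486 CPM and differed from endothelial cells by 7.47 ± 0.18 and 7.57 ± 0.18 (adjusted p = 2.23e-44 and 1.99e-44). Mrvi1, the substrate through which cyclic GMP kinase damps calcium release, reached 135 CPM (9.32 ± 0.36, adjusted p = 1.32e-32), and Pde3a, which breaks down cyclic nucleotides, 215 CPM (7.85 ± 0.23, adjusted p = 6.27e-39).

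The potassium channel pair of pericytes ran the other way. Kcnj8 summed to 50.5, 48.9, 10.96 and 0 CPM in the healthy and 85.7, 97.6, 17.9 and 8.09 CPM in the MI mice, and to 163, 357, 395 and 202 and 205, 163, 88.6 and 147 CPM in Rgs5 cells. In VSMCs, 10 of the 12 UMIs of MI 244 and 18 of the 28 of MI 250 were in 1 cell each. Kcnj8 was lower in VSMCs than in the Rgs5 cells of the same mouse in all 8 mice, and in the test by -2.32 ± 0.38, adjusted p = 5.93e-05. Its partner Abcc9, the sulfonylurea receptor subunit, was lower by -1.23 ± 0.34, adjusted p = 0.0075. Both were above endothelial cells (Kcnj8 3.08 ± 0.38, adjusted p = 4.35e-10).

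Of the receptors and regulators of vasoactive signals, 6 of 12 tested were higher and 4 lower than in endothelial cells. The higher ones included Ednra, the endothelin receptor that makes vessels constrict (85.9 ± 17.98 CPM, SD, n = 8, 14 UMIs in all endothelial cells, 8.71 ± 0.41, adjusted p = 4.07e-28), S1pr3, a sphingosine 1-phosphate receptor (157 CPM, 9.02 ± 0.33, adjusted p = 5.22e-34), and Rgs4, a G protein regulator (604 CPM, 9.61 ± 0.19, adjusted p = 4.65e-49). Npy1r, a neuropeptide Y receptor, and Ramp1, a partner of the calcitonin receptor-like receptor, were higher by 5.25 ± 0.41 and 7.06 ± 0.35 (adjusted p = 1.91e-17 and 5.13e-27). Ednrb, Ramp2, Calcrl and Adora2a, which serve endothelium, were lower, by -1.10, -1.27, -0.92 and -1.40. Agtr1a, the angiotensin II receptor, had 1 UMI in all VSMCs. The olfactory receptor gene Olfr558 was found by the size of its difference alone. It summed to 505, 269, 633 and 615 CPM in the healthy and 514, 449.6, 567 and 469 CPM in the MI mice, against 0 to 1.28 CPM in endothelial cells (10.05 ± 0.21, adjusted p = 6.73e-48).

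Among the transcriptional regulators of smooth muscle and the Notch pathway, 17 of 22 tested were higher and 1, the flow-induced Klf2, was lower than in endothelial cells. Against Rgs5 cells 12 of 17 were higher. Notch3, the Notch receptor of mural cells, summed to 518, 513, 373 and 373 CPM in the healthy and 314, 369, 366 and 518 CPM in the MI mice, and lay at 29.2 to 167 CPM in Rgs5 cells (2.72 ± 0.23, adjusted p = 7.85e-09) and 0.214 to 1.51 CPM in endothelial cells (9.12 ± 0.19, adjusted p = 1.33e-47). Its targets Heyl and Hey2 differed from endothelial cells by 6.44 ± 0.33 and 6.37 ± 0.41 (adjusted p = 1.72e-26 and 1.9e-21). Its ligand Jag1, through which one VSMC can signal to the next, differed by 2.27 ± 0.15, adjusted p = 4.09e-20. Nrip2, a nuclear receptor interacting protein, averaged 400.4 CPM and differed by 4.87 ± 0.27, adjusted p = 2.39e-11, from Rgs5 cells. Tbx2 and Prrx1, developmental transcription factors, differed from endothelial cells by 6.34 ± 0.24 and 8.36 ± 0.39 (adjusted p = 4.96e-33 and 2.82e-28). Srf, which encodes serum response factor, averaged 25.02 CPM (0.70 ± 0.28, adjusted p = 0.0467), and Myocd, its muscle partner, averaged 11.1 CPM and was not tested. Mir143hg, the host transcript of a microRNA cluster of smooth muscle, had the largest difference of all named genes, with 202 to 484 CPM in VSMCs and 10 UMIs in all endothelial cells (11.24 ± 0.24, adjusted p = 5.53e-47).

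Markers shared with pericytes were high in VSMCs. Of the pericyte list 15 of 17 tested were higher than in endothelial cells and 0 lower (median 5.93). Against Rgs5 cells 8 of 14 were higher and 2 lower (median 1.10). Pdgfrb, the receptor that recruits mural cells, summed to 329, 342, 252 and 429 CPM in the healthy and 221, 279, 174 and 299 CPM in the MI mice, against 36.9 to 218 CPM in Rgs5 cells (1.51 ± 0.19, adjusted p = 2.68e-06). The mitochondrial proteins Cox4i2 and Ndufa4l2 averaged 962 and 1049 CPM, 1.97 ± 0.17 and 1.88 ± 0.19 above Rgs5 cells (adjusted p = 1.54e-08 and 1.29e-07). Vtn (vitronectin) and Steap4 did not differ by the test from Rgs5 cells (-0.03 ± 0.27 and -0.12 ± 0.26, adjusted p = 0.95 and 0.784). When Rgs5 cells were restricted to the 179 with a UMI of Pdgfrb, Kcnj8, Abcc9 or Vtn, 19 of 24 contractile genes were still higher in VSMCs. The pericyte markers split into 4 higher and 3 lower of 9. In this fit 331 of all 2775 genes tested were higher and 317 lower.

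Matrix genes were divided. Of the extracellular matrix list 18 of 35 tested were higher and 11 lower than in endothelial cells. After thinning to 1000 UMIs 7 of 27 were higher and 10 lower, against 343 and 1058 of all 7380 genes tested. Mgp, an inhibitor of calcification, averaged 1309 CPM (3.07 ± 0.17, adjusted p = 4.86e-25), Aspn (asporin) 460.2 CPM (8.54 ± 0.20, adjusted p = 5.24e-45) and Bgn (biglycan) 508 CPM (2.24 ± 0.17, adjusted p = 1.75e-17). Fbln5 and Eln, which build elastic fibres, differed by 1.93 ± 0.14 and 0.86 ± 0.20 (adjusted p = 2.43e-18 and 0.000382). The basement membrane genes Col4a1, Col4a2, Lama4, Nid1 and Hspg2 were lower in VSMCs than in endothelial cells, by -1.62, -1.77, -1.998, -1.06 and -1.67.

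Most respiratory chain genes tested were higher in VSMCs. Of 45 oxidative phosphorylation genes tested, 38 were higher and 1, Ndufa4, lower than in endothelial cells (median 0.50), and 37 of 44 were higher and 0 lower than in Rgs5 cells (median 0.57). Cox8a (1.39 ± 0.11, adjusted p = 1.89e-16) and Atp5b (1.07 ± 0.11, adjusted p = 2.14e-12) were examples. After thinning to 1000 UMIs 10 of 44 were higher and 1 lower against endothelial cells and 28 of 43 were higher against Rgs5 cells, with medians of 0.28 and 0.61. In these thinned fits 343 of all 7380 genes were higher against endothelial cells (median -0.43) and 180 of 1062 against Rgs5 cells (median -0.05). The mitochondrial share of UMIs moved with the cell group, with a median of 4.99% in VSMCs, 2.42% in endothelial and 2.66% in Rgs5 cells, and its part in these differences was not tested. Immediate early genes were higher in 16 of 25 and lower in 2 of 25 against endothelial cells, led by Nr4a2 (3.37 ± 0.26, adjusted p = 5.94e-18) and Nr4a1 (2.11 ± 0.16, adjusted p = 1.49e-17), orphan receptors that cell stress and dissociation also induce.

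Several lists stood lower in VSMCs, those of endothelial markers, interferon response, antigen presentation, cell cycle, smooth muscle state switching and red cells and platelets. Endothelial markers were lower in 17 of 18 tested against endothelial cells (median -1.34), and in 19 of 20 against Rgs5 cells (median -1.004). Interferon response genes were lower in 18 of 20 and 13 of 19 (medians -0.87 and -0.78). Of the antigen presentation list 13 of 17 were lower than in endothelial cells and 13 of 16 lower than in Rgs5 cells. Higher than in endothelial cells were the class II genes Cd74 (0.62 ± 0.21, adjusted p = 0.0183) and H2-Aa (0.96 ± 0.23, adjusted p = 0.000661), and none was higher than in Rgs5 cells. The 20 haematopoietic markers, Cd74 among them, summed in VSMCs to 141 to 367% of the endothelial level in healthy and 49.1 to 91.6% in MI mice. Of 13 tested, Cd74 and Coro1a were higher and Lyz2 was lower, and their part in the class II values was not tested. Cell cycle genes were lower in 22 of 25 than in endothelial cells (median -2.29), and none of the 25 was higher. The smooth muscle state switching list, genes tied to the less contractile states, had 7 of 31 higher and 16 lower than in endothelial cells (median -0.69) and 5 of 24 higher and 14 lower than in Rgs5 cells (median -0.62). Higher in both comparisons were Igfbp5, S100a6, Crip1, Lgals1 and Pdgfrb, and the lower ones included Cd34 (-2.10 ± 0.14, adjusted p = 1.02e-20) and Vim (-0.87 ± 0.12, adjusted p = 2.4e-08), which endothelial cells also express. Of the erythroid and platelet markers 5 of 7 were lower than in endothelial cells (median -3.58). By the naming rule the 12 lowest genes against endothelial cells were the globins Hba-a1, Hbb-bt, Hba-a2 and Hbb-bs together with Car4, Ccdc85a, Aplnr, Cxcl9, Mest, Slc28a2, Gpihbp1 and Apln, from -4.87 to -3.10. Among them were Car4, a carbonic anhydrase of capillaries, at -4.34 ± 0.28, adjusted p = 1.59e-21, Aplnr, the apelin receptor, at -3.92 ± 0.19, adjusted p = 3.36e-27, Cxcl9, an interferon-induced chemokine, at -3.70 ± 0.28, adjusted p = 9.57e-18, and Gpihbp1, which holds lipoprotein lipase at the capillary wall, at -3.15 ± 0.15, adjusted p = 1.72e-27. Of 6 fibroblast markers tested 3 were higher, and of 9 cardiomyocyte markers 4 were higher (Tnnt2, Fabp3, Pln and Slc25a4) and 1 lower (Mb), with a median of -0.62.

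After infarction, 24 of 3873 genes tested in VSMCs were higher (0.62%) and 28 lower (0.723%), and 410 (10.6%) had an unadjusted p under 0.05. Of the 12 named genes called higher, 6 were on the interferon response list (Ifit3b, Ifit3, Irf7, Ifi27l2a, Ifit1 and Isg15), and the others were Gm5900, Sox18, Pi16, Rtp4, Col4a1 and Gngt2. Of the 12 named genes called lower, 6 were ribosomal protein pseudogenes by their names. Of 945 genes that were higher in VSMCs than in endothelial cells and could be tested here, 3 (0.317%) were higher in MI (Fn1, Pi16 and Serinc3) and 5 (0.529%) lower (Gm10250, Hes1, Hnrnph3, Lbh and Rnd2), shares not tested against those over all genes. All of these comparisons rest on 3 healthy mice, of which Healthy 239 gave 84 of the 105 cells. Without Healthy 239 the calls dropped to 3 higher and 9 lower, and without MI 244 to 9 higher and 7 lower, without MI 250 to 11 and 9, and without MI 255 to 8 and 7. Without Healthy 227 they rose to 49 and 37.

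**Figure D3:**
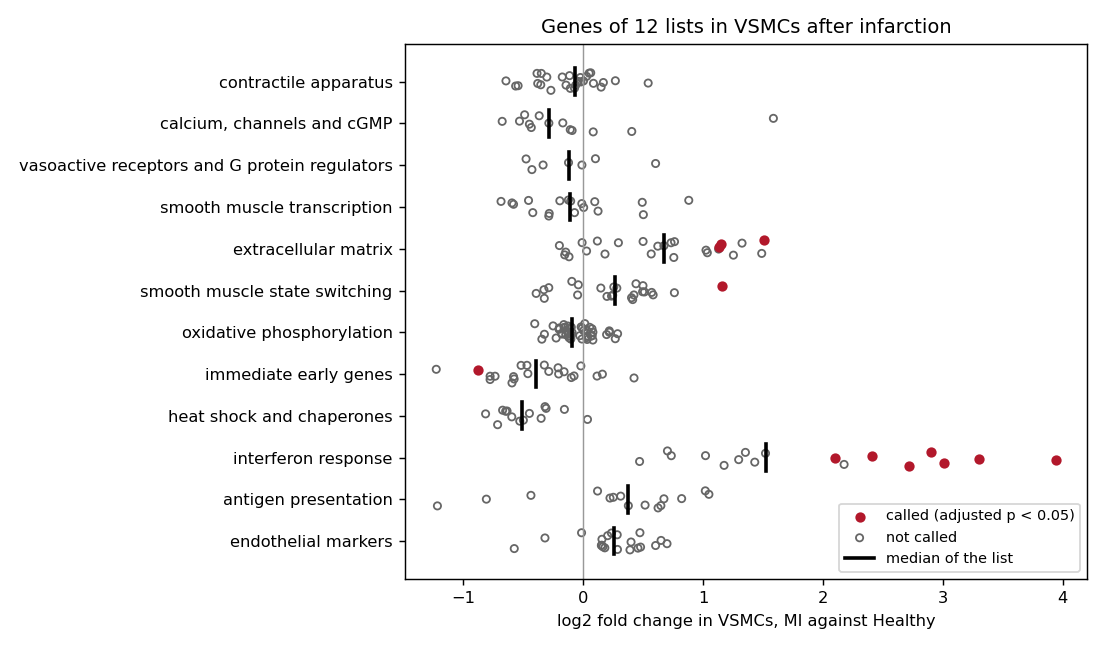
Log2 fold change in VSMCs, MI against Healthy (horizontal axis), for the genes of 12 lists (1 point per gene tested, filled where called, bar at the median of the list). All 17 interferon response genes lie above 0 with a median of 1.52, while contractile genes centre on -0.07 with 0 of 27 called.

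Some interferon response genes were higher after infarction in the mice tested. Of 17 tested, 7 were called higher and 0 lower (Isg15, Irf7, Rsad2, Ifi27l2a, Ifit1, Ifit3 and Ifit3b), all 17 had a positive fold change, and their median was 1.52 against 0.01 over all genes tested. In 9 of the 17 all 4 MI mice lay above the 3 healthy mice tested, as did 266 of all 3873 genes (6.87%). Isg15, a ubiquitin-like modifier, summed to 88.5, 757, 109.6 and 74.5 CPM in Healthy 227, 228, 239 and 240 and to 593, 310.2, 554 and 376 CPM in MI 244, 250, 255 and 256. The 3 healthy mice tested lay below every MI mouse, and Healthy 228, which was not tested, was the highest of all 8 with 24 of its 31 UMIs in 1 cell. Isg15 was higher by 2.097 ± 0.28, adjusted p = 0.00067, without Healthy 228, and did not pass the threshold when Healthy 228 was included (adjusted p = 0.291). Ifit3, an RNA-binding antiviral protein, summed to 37.9, 171, 13.1 and 18.6 CPM in the healthy and 286, 80.2, 174 and 239 CPM in the MI mice (3.30 ± 0.52, adjusted p = 0.00243). Ifit1, its partner in the complex that holds viral RNA, summed to 12.6, 122, 24.1 and 0 and 157, 97.6, 134 and 182 CPM (2.72 ± 0.42, adjusted p = 0.00188). In both genes Healthy 228 lay within the MI range. Irf7, the transcription factor that amplifies the response, summed to 50.5, 122, 21.9 and 37.3 CPM in the healthy and 171, 188, 491 and 125 CPM in the MI mice (3.01 ± 0.53, adjusted p = 0.00505). All 4 MI mice lay above all 4 healthy mice for Irf7, and MI 255 stood highest, with 46 of its 110 UMIs in 1 cell.

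Single cells held much of the interferon signal. The list summed to 1782, 3078, 719 and 634 CPM in the healthy and 3578, 2209, 3908 and 3025 CPM in the MI mice, with Healthy 228 inside the MI range. The 1 cell with the most interferon UMIs gave 14.2, 72.2, 7.32 and 23.5% of them in the healthy and 45.3, 10.7, 22.1 and 45.9% in the MI mice. In MI 244, 60 of 83 UMIs of Isg15 and 28 of 40 of Ifit3 were in 1 cell, and in MI 256, 41 of 93 and 40 of 59. When the cell with the highest share of interferon UMIs was left out of each mouse, an alternative chosen after the values were seen, the list summed to 1659, 1082, 674 and 541 CPM in the healthy and 2090, 2007, 3211 and 1685 CPM in the MI mice. Healthy 228 fell most, from 3078 to 1082 CPM. The cell was picked by the measure itself, so no separation is read from these values. In that setting 5 of 13 interferon response genes were called higher, with a median of 1.10, as were 18 of all 3719 genes tested. The median cell held 1971, 1038, 544 and 617 CPM of the list in the healthy and 1214, 1406, 2494 and 1450 CPM in the MI mice, and Healthy 227 was above 3 of the MI mice by this measure. At least 1 interferon UMI was found in 81.8, 100, 78.6 and 80.0% of VSMCs of the healthy and in 100, 97.3, 100 and 92.7% of the MI mice. Under the alternatives, between 1 and 12 interferon response genes were called, with 2 of 17 without Healthy 239, 12 of 19 without Healthy 227 and 5 of 15 with Healthy 228 included. Over all genes, 3 of 3778, 49 of 4468 and 23 of 3103 were called higher in these settings.

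In endothelial cells of the same mice the list stood higher, and its level in VSMCs was 31.98, 75.1, 25.8 and 21.6% of the endothelial level in the healthy and 72.8, 44.5, 67.6 and 73.1% in the MI mice. By mouse, Isg15 was found in 54.5, 50, 25 and 20% of the healthy and in 33.3, 59.5, 74.1 and 53.7% of the MI VSMCs, so the groups overlap. Pooled over mice, with 84 of the 111 healthy VSMCs from Healthy 239, the shares were 28.8 and 56.9%, and 33.3 and 59.3% in endothelial cells. After thinning to 1000 UMIs the pooled shares were 8.11 and 21.95% in VSMCs and 20.2 and 28.3% in endothelial cells. The 4 endothelial genes moved in the same direction, from 28.7 to 38.6% of the endothelial level as given above, and the part of endothelial RNA in the interferon values was not tested beyond the subset below. In the 146 VSMCs under 1000 CPM in the sum of the 4 endothelial genes, 3 of 6 interferon response genes were called higher, with a median of 1.85, as were 15 of all 1493 genes tested. This subset left 5, 62 and 7 cells in Healthy 227, 239 and 240, and a minimum of 5 cells per mouse was used for it in place of 10.

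Promoters of the interferon genes called higher are shown because many of them carry the same element. GAAANNGAAA (N is any base), searched on both strands, is the core of the element bound by the interferon-activated complex of STAT and IRF factors. It was found in 11 of 16 genes of the list with a promoter in the RefSeq table, against 1079 of all 27025 genes in the table (3.99%). It was in 5 of the 6 called higher with a promoter there and in 4 of 7 tested and not called. The 5 promoters of called genes are printed 5′ to 3′ on the strand of the gene with the matches in capitals. Isg15 has 3 overlapping matches, Rsad2 has 1 and the Ifit genes have 2 each. Ifit1 (chr19:34640871-34650009), Ifit3 (chr19:34583531-34588731) and Ifit3b (chr19:34607970-34613401) lie side by side on the plus strand of GRCm38, and Ifit3 and Ifit3b are near-identical copies whose reads may be split between them.

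Isg15 (chr4:156200769-156201068, minus strand): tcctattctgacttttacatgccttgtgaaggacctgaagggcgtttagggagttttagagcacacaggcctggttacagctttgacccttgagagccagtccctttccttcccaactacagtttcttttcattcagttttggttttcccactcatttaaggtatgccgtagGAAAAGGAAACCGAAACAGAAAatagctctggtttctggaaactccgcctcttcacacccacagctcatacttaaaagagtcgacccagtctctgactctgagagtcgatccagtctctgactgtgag

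Rsad2 (chr12:26456403-26456702, minus strand): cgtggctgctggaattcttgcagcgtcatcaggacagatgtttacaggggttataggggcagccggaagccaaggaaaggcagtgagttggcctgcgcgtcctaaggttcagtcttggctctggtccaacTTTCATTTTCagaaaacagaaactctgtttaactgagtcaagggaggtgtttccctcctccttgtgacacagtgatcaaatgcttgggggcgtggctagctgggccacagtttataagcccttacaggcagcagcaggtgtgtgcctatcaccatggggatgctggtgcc

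Ifit1 (chr19:34640639-34640938, plus strand): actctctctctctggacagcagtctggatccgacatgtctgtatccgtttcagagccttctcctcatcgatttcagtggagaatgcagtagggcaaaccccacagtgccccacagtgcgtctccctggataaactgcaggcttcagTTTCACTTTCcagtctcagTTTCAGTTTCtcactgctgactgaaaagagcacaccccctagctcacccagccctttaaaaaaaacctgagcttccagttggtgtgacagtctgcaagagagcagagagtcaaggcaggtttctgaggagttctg

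Ifit3 (chr19:34583279-34583578, plus strand): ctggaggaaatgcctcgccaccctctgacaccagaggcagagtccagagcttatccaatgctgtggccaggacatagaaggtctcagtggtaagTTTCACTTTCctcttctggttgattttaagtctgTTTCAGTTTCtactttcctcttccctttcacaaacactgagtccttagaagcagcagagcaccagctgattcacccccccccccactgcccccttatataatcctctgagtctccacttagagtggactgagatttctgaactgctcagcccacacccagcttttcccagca

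Ifit3b (chr19:34607707-34608006, plus strand): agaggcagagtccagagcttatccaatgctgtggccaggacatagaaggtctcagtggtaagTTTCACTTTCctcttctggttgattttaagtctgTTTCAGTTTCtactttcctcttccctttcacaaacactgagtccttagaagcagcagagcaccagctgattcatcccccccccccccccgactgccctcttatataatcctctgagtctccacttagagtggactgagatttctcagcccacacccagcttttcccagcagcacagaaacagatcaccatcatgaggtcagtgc

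**Figure D4:**
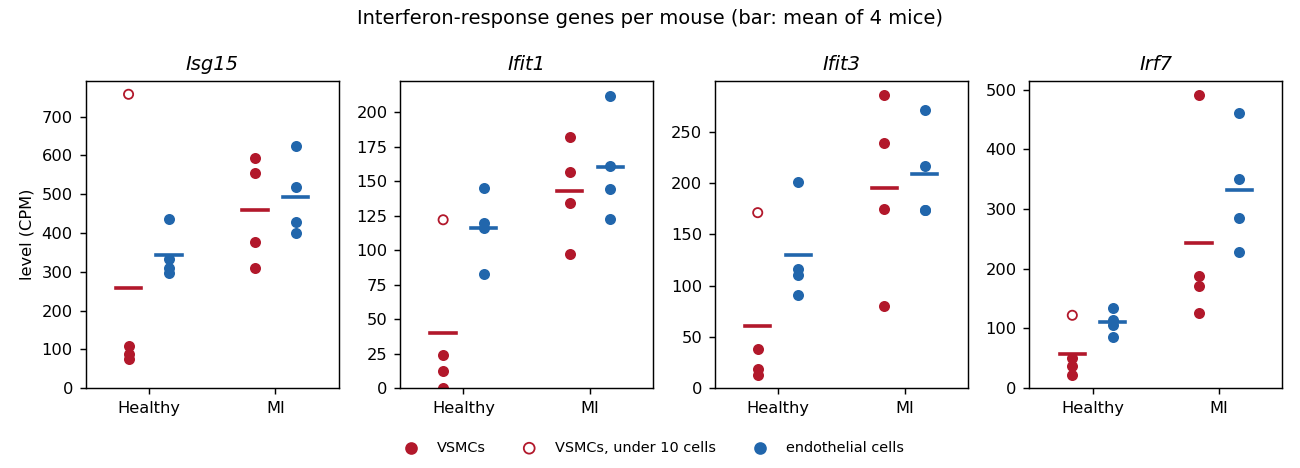
Levels of Isg15, Ifit1, Ifit3 and Irf7 (CPM, linear axis from 0) in VSMCs (red) and endothelial cells (blue), 1 point per mouse, bar at the mean of 4 mice. The open point is Healthy 228 with 6 VSMCs, at 757 CPM for Isg15, and the other 3 healthy VSMC values lie below every MI value in each panel.

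Of the extracellular matrix list 3 of 25 tested were called higher and 0 lower, with a median of 0.67. Over all 3873 genes tested, 24 (0.62%) were higher and 28 (0.723%) lower, with a median of 0.01. Col4a1, a chain of basement membrane collagen, summed to 177, 122, 105 and 112 CPM in the healthy and 514, 366, 322 and 283 CPM in the MI mice (1.51 ± 0.27, adjusted p = 0.00505). Fn1, fibronectin, summed to 177, 122, 118 and 149 CPM in the healthy and 457, 314, 304 and 210.3 CPM in the MI mice (1.13 ± 0.27, adjusted p = 0.0426). Sparc, a collagen-binding protein, summed to 1226, 1050.5, 938 and 950.3 and 2849, 2945, 2367 and 1379 CPM (1.15 ± 0.24, adjusted p = 0.0151). In all of them every MI mouse lay above all 4 healthy mice, with MI 256 the lowest of the MI mice. Against the 3 healthy mice tested, 5 of the 25 genes had every MI mouse above, as did 266 of all 3873 genes (6.87%). Col4a1 and Sparc are higher in endothelial cells than in VSMCs, and Fn1 is higher in VSMCs. Bgn at 1.49 ± 0.38 (adjusted p = 0.0649), Eln at 1.04 ± 0.49 (adjusted p = 0.457) and Col1a2 at 1.33 ± 0.44 (adjusted p = 0.202) did not pass. Interstitial collagens were rare. Col3a1 had 0 UMIs in all healthy mice and 328, 136, 17.9 and 16.2 CPM in the MI mice, and Col1a1 0, 0, 0 and 37.3 CPM in the healthy and 514, 34.8, 0 and 8.09 CPM in the MI mice. Dcn (decorin), a fibroblast gene, had 0 UMIs in healthy and 21.4, 52.3, 8.93 and 0 CPM in MI mice, with 12 of its 20 UMIs in 1 cell. Without Healthy 239 Col4a1 did not pass the threshold (adjusted p = 0.177), while its log2 fold change was 1.26 to 1.69 over its 18 settings.

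Other genes called higher belonged to no single list. Gm5900, Rtp4 and Gngt2 stood at 2.78 ± 0.53, adjusted p = 0.01, 1.63 ± 0.36, adjusted p = 0.0234, and 1.44 ± 0.34, adjusted p = 0.0364. They passed in 15 of 17, 10 of 18 and 8 of 17 settings, and Rtp4 and Gngt2 passed neither with DESeq2 nor with limma-voom. Rtp4 also did not pass when the VSMC highest in interferon genes was left out of each mouse. Whether it moved with the interferon genes was not tested. Sox18, an endothelial transcription factor, summed to 63.2, 122, 30.7 and 18.6 CPM in the healthy and 278, 174, 103 and 202 CPM in the MI mice (2.32 ± 0.40, adjusted p = 0.00505), with Healthy 228 above MI 255. Cd34, a surface protein of endothelium and progenitors and the 1 called gene of 24 in the smooth muscle state switching list, summed to 139, 122, 131 and 112 and 343, 268, 433 and 190.1 CPM (1.16 ± 0.28, adjusted p = 0.0426). Pi16, a peptidase inhibitor found in adventitial fibroblasts, summed to 37.9, 48.9, 67.9 and 18.6 CPM in the healthy and 257, 230, 402 and 101 CPM in the MI mice (2.05 ± 0.42, adjusted p = 0.0151). It passed in 12 of 18 settings, with limma-voom and without Healthy 239, MI 244, MI 250 or MI 255 among those where it did not, and Sox18 did not pass without Healthy 239 (adjusted p = 0.221). For Cd34 and Pi16 the MI values did not overlap the healthy ones. Of all 3873 genes, 266 (6.87%) had every MI mouse above the 3 healthy mice tested. Endothelial markers as a list had 0 of 20 called, 17 above 0 and a median of 0.26. Their summed level in VSMCs was 31.97, 33.9, 24.9 and 19.7% of that in endothelial cells in the healthy and 37.96, 35.3, 42.6 and 38.5% in the MI mice, with no overlap between the groups, and its part in these changes and in those of Col4a1 and the interferon genes was not tested. Of the fibroblast list 1 of 3 was called, Pi16, and of the haematopoietic list 0 of 3.

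The muscle program itself showed no called gene. Contractile genes had 0 of 27 called with a median of -0.07, calcium and cyclic GMP genes 0 of 13 (-0.29), vasoactive receptors 0 of 7 (-0.12) and smooth muscle transcription 0 of 18 (-0.11), by edgeR with 10.6% of all genes at an unadjusted p under 0.05. Tpm2 changed by -0.14 ± 0.27 (adjusted p = 0.931), Myl9 by -0.04 ± 0.22 (adjusted p = 0.983) and Lmod1 by -0.27 ± 0.23 (adjusted p = 0.772). These tests do not show that the levels were equal. The summed level of the contractile list was 22089, 21962, 34783 and 41009.9 CPM in the healthy and 30556, 35612, 28758 and 31701 CPM in the MI mice, with all MI mice inside the healthy range. Cnn1 summed to 0, 24.4, 87.6 and 0 CPM in the healthy and 121, 122, 66.99 and 68.8 CPM in the MI mice and was found in 15.3% of healthy and 29.3% of MI VSMCs (0.54 ± 0.46, adjusted p = 0.772). Heyl had 88.5, 48.9, 50.4 and 74.5 CPM in the healthy and 99.97, 132, 121 and 109 CPM in the MI mice, all above the healthy ones (0.88 ± 0.30, adjusted p = 0.236). Oxidative phosphorylation (0 of 44, median -0.09), glycolysis (0 of 14, 0.13), antigen presentation (0 of 15, 0.38) and the TGF-beta, BMP and PDGF list (0 of 19, 0.00) had no called gene either.

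Genes called lower included Jund, Hes1, Rnd2 and Wdr89 besides the ribosomal protein pseudogenes. Jund, a subunit of the AP-1 factor, summed to 1390, 2174, 1976 and 1472 CPM in the healthy and 921, 819, 969 and 1019 CPM in the MI mice, all MI mice below all healthy mice (-0.87 ± 0.19, adjusted p = 0.0212). It was the 1 called of 22 immediate early genes, whose median was -0.39. Hes1, a Notch target, summed to 581, 975 and 1248 CPM in Healthy 227, 239 and 240 and to 371, 484, 272 and 578 CPM in the MI mice (-1.17 ± 0.26, adjusted p = 0.0305). Rnd2 summed to 50.5, 70.1 and 111.8 CPM in the same healthy mice and to 7.14, 13.9, 13.4 and 24.3 CPM in the MI mice (-2.24 ± 0.46, adjusted p = 0.0151). Heat shock genes had 0 of 14 called, a median of -0.51 and 5 in which all MI mice lay below the 3 healthy mice, as did 145 of all genes (3.74%). Wdr89, which encodes a WD repeat protein, summed to 607, 1368, 605 and 745 CPM in the healthy and 171, 237, 152 and 239 CPM in the MI mice (-1.71 ± 0.22, adjusted p = 0.000569). Of 11 ribosomal protein pseudogenes tested, grouped by name after the calls were seen, 9 were lower (median -1.30), while of 80 genes of cytosolic ribosomal proteins 2 were lower (median -0.17). Pseudogenes share reads with the genes they copy, so these values are uncertain.

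Whether the change after infarction differed between VSMCs and the other cells was tested directly. Against endothelial cells it differed for 155 of 10234 genes, 114 (1.11%) more positive and 41 (0.401%) more negative in VSMCs. Of the interferon response list 9 of 20 were more positive and 0 more negative, led by Ifit3b (3.28 ± 0.63, adjusted p = 8.37e-05), Ifit3 (2.68 ± 0.42, adjusted p = 1.71e-07) and Ifit1 (2.48 ± 0.41, adjusted p = 1.05e-06). With DESeq2 19 of all genes were more positive, and Ifit3b, Ifit3 and Rsad2 did not pass, while Ifit1 did. Ifit3 summed to 201, 117, 109.9 and 91.1 CPM in healthy and 174, 216, 271 and 174 CPM in MI endothelial cells, and these ranges overlap, while the VSMC values were given above. Endothelial markers moved the same way, with 6 of 18 more positive (Fabp4, Cd36, Kdr, Aqp1, Ly6c1 and Gpihbp1), 0 more negative, all 18 above 0 and a median of 0.71 against 0.11 over all genes, and their part in the interferon difference was not tested. Hey1, a Notch target of arterial cells, had a mean in endothelial cells of 141 CPM in healthy and 82.3 CPM in MI mice and was at 191 and 229 CPM in VSMCs (1.72 ± 0.26, adjusted p = 8.93e-08). Some more negative genes were low in healthy endothelium. Tmem51 averaged 0.598 CPM in healthy and 8.35 CPM in MI endothelial cells against 95.3 and 91.9 CPM in VSMCs (-4.21 ± 0.60, adjusted p = 5.98e-09). Igfbp5, which binds insulin-like growth factors, averaged 24.00 and 155 CPM in endothelial cells against 387 and 430.5 CPM in VSMCs (-2.57 ± 0.24, adjusted p = 1.96e-23). Cd63, a tetraspanin of late endosomes, averaged 36.2 and 133 CPM against 452 and 495 CPM (-1.38 ± 0.23, adjusted p = 7.24e-07), and Nr2f2, a venous transcription factor, 28.3 and 62.2 CPM against 327 and 220.3 CPM (-1.55 ± 0.26, adjusted p = 9.96e-07). In all 4 of these genes the ratio of the MI mean to the healthy mean was farther from 1 in endothelial cells than in VSMCs. The endothelial depth moved with infarction too, and after thinning both kinds of cell to 1000 UMIs 0 genes were more positive and 3 more negative (Igfbp5, Nr4a2 and Nr2f2, at -3.35, -3.14 and -2.19). All 23 named genes tested in that setting kept their direction, 16 with a larger and 7 with a smaller difference than before thinning. However, 6 of them had a log2 size over 8, such as Ifit3 at 9.86 and Ifit1 at 9.03. These lie far from the values before thinning and did not pass, so nothing is read from the count of larger differences. Of the named genes that did not pass there, Hey1 stood at 1.695 (adjusted p = 0.966), Cd63 at -1.49 and Spint2 at -2.01. Cyp4b1 went from 1.69 to 0.34 and Tuba1c from -2.06 to -0.76.

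Against Rgs5 cells the change differed for 31 of 4466 genes, 22 (0.493%) more positive and 9 (0.202%) more negative in VSMCs. Myl9 averaged 148 CPM in healthy and 77.4 CPM in MI Rgs5 cells and 2091 and 2499.6 CPM in VSMCs (1.32 ± 0.26, adjusted p = 0.0121). Rgs4 averaged 144 and 52.2 CPM in Rgs5 cells and 627 and 580.4 CPM in VSMCs (1.35 ± 0.28, adjusted p = 0.019). The pericyte markers Cox4i2, Steap4 and Notch3 were called in the same direction (1.19 ± 0.22, 1.71 ± 0.37 and 1.45 ± 0.34, adjusted p = 0.0103, 0.0276 and 0.0411). The rest of the pericyte list is not described here, so no trend of that list is read from them. For Myl9 and Rgs4 the ratio of the MI mean to the healthy mean was farther from 1 in Rgs5 cells than in VSMCs. The level of endothelial genes in Rgs5 cells lay mostly higher in MI mice, as given above, and its part in these differences was not tested. Cd74, the class II invariant chain, averaged 27.8 and 345 CPM in Rgs5 cells and 164 and 148 CPM in VSMCs (-3.93 ± 0.48, adjusted p = 8.53e-05), and Vim (vimentin) 860.2 and 2577 against 907 and 1327 CPM (-1.20 ± 0.20, adjusted p = 0.00493). The 20 haematopoietic markers together summed to 63 to 218 CPM in healthy and 1750 to 2797 CPM in MI Rgs5 cells, and to 122 to 811 and 255 to 1221 CPM in VSMCs. The rule for VSMCs removed cells with Ptprc and that for Rgs5 cells did not, so the 2 groups were not gated alike. The part of haematopoietic RNA in these differences was not tested. Without Healthy 239 the calls fell to 0 more positive and 1 more negative, and without MI 244 to 3 and 6. After thinning to 1000 UMIs none of the 17 calls that could still be tested passed. The 9 named genes tested there kept their direction, 2 with a larger and 7 with a smaller difference. Isg15 stood at 1.95 and Gucy1b3 at 1.45, while Myl9 was at 1.20, Rgs4 at 0.86 and Vim at -0.51. The median depth of Rgs5 cells moved with infarction as given above.

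A small set of VSMCs was low in Rgs5. After thinning to 1000 UMIs, 22 of 234 VSMCs held 0 UMIs of Rgs5, namely 1, 0, 7 and 1 in the healthy and 2, 5, 2 and 4 in the MI mice. They are called Rgs5-low here, since most VSMCs held Rgs5 before thinning. Only Healthy 239 and MI 250 had at least 5 such cells, so the comparison within mice rests on these 2. Unthinned, Rgs5 summed to 727 CPM in Rgs5-low and 5566 CPM in the other VSMCs of Healthy 239 and to 188 and 6594 CPM in MI 250, a difference the split itself fixes. Acta2, a rule gene, summed to 14661 CPM in Rgs5-low and 7888 CPM in the other VSMCs of Healthy 239, and to 21123 and 5903 CPM in MI 250. Cnn1 summed to 392 against 61.8 CPM in Healthy 239 and to 563 against 45.03 CPM in MI 250, the higher value each time in the Rgs5-low cells. These rest on 14 and 24 UMIs over 7 and 5 cells, and 1 Rgs5-low cell of MI 250 held 12 of the 24. Pln summed to 1091 against 404 CPM and 844 against 176 CPM, and Dstn (destrin, which turns over actin) to 3078 against 1262 CPM and 3212 against 1015 CPM. Ndufa4l2 went the other way, with 504 against 972 CPM and 328 against 1330 CPM. Kcnj8 had 0 UMIs in the Rgs5-low cells and stood at 11.9 and 114.6 CPM in the others. These values rest on 5 UMIs in Healthy 239 and 28 UMIs in MI 250, 18 of the 28 in 1 cell. So few UMIs cannot decide whether Kcnj8 differed. The differences of the other genes had the same direction in both mice. By edgeR 0 of 2571 genes were called (194, or 7.55%, at an unadjusted p under 0.05), with Cnn1 at -3.13 ± 0.44 in the other against the Rgs5-low cells (adjusted p = 0.141). DESeq2 called Cnn1 (adjusted p = 0.0421). All 28 contractile genes tested had a fold change below 0 in the same direction, with a median of -0.95 against 0.05 over all genes tested. None of the 28 was called, and all rest on the same 7 and 5 Rgs5-low cells. Endothelial markers went the other way, with 17 of 18 above 0 and a median of 0.65. Cd36 summed to 168 CPM in Rgs5-low against 495 CPM in the other VSMCs of Healthy 239 and to 281 against 954 CPM in MI 250. Pooled over all mice, however, Cdh5 and Pecam1 were higher in the 22 Rgs5-low cells (375 against 297 CPM and 424 against 365 CPM). The part of endothelial RNA in the differences was not tested.

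**Figure D5:**
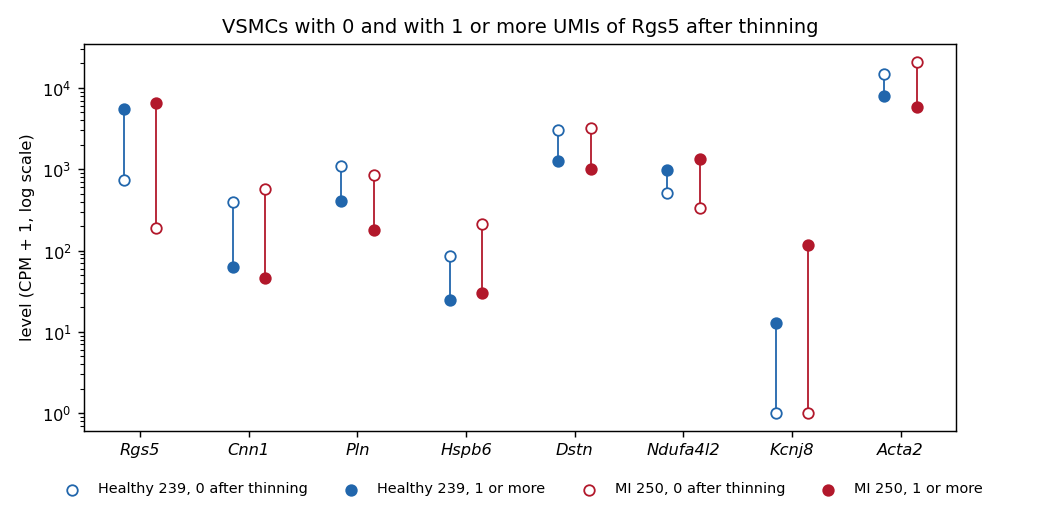
Levels of 8 genes (CPM + 1, log scale) in VSMCs with 0 (open) and with 1 or more UMIs of Rgs5 after thinning (filled), in Healthy 239 (blue, 7 and 77 cells) and MI 250 (red, 5 and 32 cells), joined by a line per mouse. Cnn1, Pln, Hspb6, Dstn and Acta2 lie higher and Ndufa4l2 lower in the Rgs5-low cells of both mice. Kcnj8 had 0 UMIs in the Rgs5-low cells and 5 and 28 UMIs in the others, too few to decide a difference.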

How the data were processed

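Single cells sorted as CD31+, Confetti+ and podoplanin- were measured with the 10X Chromium 3′ assay, 1 library for each of 8 mice. The authors deposited 1 table of UMI counts, whole numbers without normalization, for 16791 genes in 31028 cells, made with Cell Ranger on the mm10 genome. Per the labels and the methods of the study, Seurat 2.3 and R 3.5.2 were used. The fewest genes in a cell were 403 and the highest mitochondrial share 19.96%, inside the authors' limits of 400 genes and 20%. Their filters could remove VSMCs with little or damaged RNA. No doublet caller was run here. The gate on doublets in the sort does not remove 2 cells caught in 1 droplet.

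Groups were taken from the sample labels. The rule for VSMCs, the gene lists and the genes named were chosen with earlier results of these data known. Named are the rule's markers, members of a list where a passage is about that list, and the 12 highest and 12 lowest among genes called, where their mean was 50 CPM or more, with the same direction in every mouse or no overlap between groups. Genes in the rules of the cell groups were left out before adjustment. 1 gene that this rule names in the difference of the MI effect from Rgs5 cells is not reported here, and it stays in all counts.

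UMI counts were summed per mouse over the cells of a group and tested with edgeR 4.0.16 (TMM, filterByExpr, quasi-likelihood test, Benjamini-Hochberg adjustment, threshold 0.05) in R 4.3.3, in mice with at least 10 VSMCs. Cell types were compared with the mouse as a block, since the same mice gave all of them. Values per mouse were compared by two-sided exact permutation tests. Cells were thinned to 1000 UMIs where depth could decide a share. Python 3.11.15 with numpy 2.4.6, scipy 1.17.1 and pandas 2.3.3 was used. On simulated counts with 200 genes changed 4-fold, the test recovered 80% for MI against Healthy (3876 genes), 85% against Rgs5 cells (4470 genes) and 86.5% against endothelial cells (10240 genes), and 77.5% and 54.5% for the differences of the MI effect from them. The alternatives were DESeq2 1.42.0, limma 3.58.1 (voom), Xist as a covariate, no filter on low counts, thinned cells, other rules, all deposited cells, other limits on cells and mice, and each mouse left out. Promoters are from RefSeq (GRCm38.p6).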

Additional observations from a re-analysis of the deposited data

Results flagged for a closer look

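Healthy 239, with VSMCs at 2.21% of its cells, stood apart from the other 3 healthy mice, with a gap that took 92.4% of the range of the group. By chance about 1 of 20 groups would pass the limit used for such gaps, and 81 of its 84 VSMCs had their barcode in Healthy 228 as well.

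The change after infarction differed between VSMCs and Rgs5 cells by the test of the difference itself (log2 difference of fold changes, edgeR). It was more positive in VSMCs for Irf7 (1.94, adjusted p = 0.0382), C1s1 (1.88, adjusted p = 0.0463), Steap4 (1.71, adjusted p = 0.0276), Hey1 (1.67, adjusted p = 0.0276), Isg15 (1.66, adjusted p = 0.0121), Ccdc80 (1.61, adjusted p = 0.0333), Slc6a6 (1.48, adjusted p = 0.0121), Rgs4 (1.35, adjusted p = 0.019), Gucy1b3 (1.34, adjusted p = 0.0121), Jam2 (1.33, adjusted p = 0.0346) and Myl9 (1.32, adjusted p = 0.0121). It was more negative for Cd74 (-3.93, adjusted p = 8.53e-05), Prcp (-2.02, adjusted p = 0.0382), Emp3 (-1.73, adjusted p = 0.0285) and Vim (-1.20, adjusted p = 0.00493). The rule for VSMCs asked for 0 UMIs of Ptprc and that for Rgs5 cells did not. The level of endothelial genes in Rgs5 cells also lay mostly higher in MI mice. The part of either in these differences was not tested. Isg15 and Irf7 did not pass when the VSMC highest in interferon genes was left out of each mouse (adjusted p = 0.178 and 0.0787). Their differences in that setting were 1.14 and 1.61. Between 0 and 41 genes were more positive when 1 mouse was left out, with 0 without Healthy 239. The named genes lost the call in 51 of 112 checks that left out 1 mouse and in 21 of 41 others. Irf7 passed in 2 of its 10 checks of both kinds, and C1s1 and Prcp in 2 of 9.

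Against endothelial cells the change was more positive in VSMCs for Ifit3b (3.28, adjusted p = 8.37e-05), Ifit3 (2.68, adjusted p = 1.71e-07), Ifit1 (2.48, adjusted p = 1.05e-06), Rsad2 (2.15, adjusted p = 0.00223), Rassf9 (2.12, adjusted p = 0.00571), Gm12002 (2.11, adjusted p = 0.0235), Mcf2l (2.04, adjusted p = 0.0126), Plekhg1 (1.93, adjusted p = 0.0227), Lpar6 (1.76, adjusted p = 0.0192), Tbx3os1 (1.75, adjusted p = 0.0132), Hey1 (1.72, adjusted p = 8.93e-08) and Cyp4b1 (1.69, adjusted p = 0.0123). It was more negative for Tmem51 (-4.21, adjusted p = 5.98e-09), Igfbp5 (-2.57, adjusted p = 1.96e-23), Tuba1c (-2.06, adjusted p = 8.37e-05), H2-Aa (-1.97, adjusted p = 3.92e-05), Nr4a2 (-1.90, adjusted p = 2.25e-06), Cd74 (-1.89, adjusted p = 3.78e-08), Pid1 (-1.77, adjusted p = 0.0326), Spint2 (-1.61, adjusted p = 0.000369), Ppp1r14a (-1.60, adjusted p = 8.97e-05), Nr2f2 (-1.55, adjusted p = 9.96e-07), Prcp (-1.44, adjusted p = 0.0485) and Cd63 (-1.38, adjusted p = 7.24e-07). Ifit3b, Rsad2 and Gm12002 did not pass when the VSMC highest in interferon genes was left out of each mouse (adjusted p = 0.0793, 0.0995 and 0.0579). Their differences in that setting were 2.61, 1.74 and 1.94. Ifit3 and Ifit1 still passed by edgeR there, at 1.67 (adjusted p = 0.0371) and 2.11 (adjusted p = 0.00135), both smaller than before. How much of these differences single cells carried was not tested. Endothelial cells had a median of 2416 ± 367 UMIs per healthy mouse and 4259 ± 558 per MI mouse (SD, n = 4 each). After thinning to 1000 UMIs 0 genes were more positive and 3 more negative, while the 23 named genes tested there kept their direction. The difference was larger in 16 of them, but 6 had a log2 size over 8, so nothing is read from this count. Calls of the named genes were lost in 39 of 168 checks that left out 1 mouse and 37 of 71 others, and Plekhg1, Prcp and Gm12002 each passed in 2 of their 10 checks of both kinds.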

How the results depend on the processing

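The difference in the share of VSMCs, -0.110 points, rested on Healthy 239 and turned positive as a share of VSMCs and Rgs5 cells (4.19 points) and without Healthy 239 (0.348) or MI 244 (0.00045). It was -0.409 with all deposited cells and -0.289 with at least 800 genes per cell. Leaving out 1 mouse gave -0.285 to 0.348 points.

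For MI against Healthy, 24 higher and 28 lower calls became 15 higher with DESeq2, 69 and 43 without the filter on low counts, 10 and 7 of 461 genes tested after thinning, 14 higher under the stricter rule for VSMCs, 37 and 18 with all deposited cells, 14 higher at no more than 10% mitochondrial UMIs, and 62 and 59 in mice with at least 20 VSMCs, which leaves Healthy 239 alone against 3 MI mice and assumes that it varies as they do. Among VSMCs under 1000 CPM of endothelial genes, a setting added after seeing the data, they were 15 and 16. Leaving out 1 mouse gave 3 to 49 higher (3 without Healthy 239, 9, 11 and 8 without MI 244, 250 and 255, 14 without Healthy 240, 49 without Healthy 227) and 7 to 38 lower (7 without MI 244 or MI 255). Of the calls, 46.2% were higher, against 61.6% without the filter, 67.3% with all deposited cells, 35.9% under the mitochondrial limit and 3 of 12 calls without Healthy 239. None of the named genes changed direction. They lost the call in 49 of 165 checks that left out 1 mouse and in 27 of 258 others.

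Against Rgs5 cells, 714 higher and 743 lower calls became 1329 lower without the filter, 180 and 220 after thinning, and 331 and 317 against Rgs5 cells with a UMI of Pdgfrb, Kcnj8, Abcc9 or Vtn, where 29 of the calls changed direction. Against endothelial cells, 1465 and 1831 became 343 and 1058 after thinning, where 94 of the 2565 calls still tested changed direction, as did 11 of 3202 in VSMCs under 1000 CPM of endothelial genes. With no replicate block for the mouse the counts were 631 and 627 against Rgs5 cells and 1329 and 1605 against endothelial cells, so the pairing of cell types within a mouse moved neither by over 1.5 times. The named genes of both comparisons kept direction and call in all 615 checks.

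The difference of the MI effect from Rgs5 cells had 22 and 9 calls, 8 and 5 with DESeq2, 4 and 0 after thinning (other genes, with 0 of 17 calls kept), and, leaving out 1 mouse, 0 to 41 (0 without Healthy 239, 3 without MI 244, 14 without Healthy 240 or MI 250, 36 without MI 256) and 1 to 12. From endothelial cells it had 114 and 41, 19 and 15 with DESeq2, 0 and 3 after thinning, and, leaving out 1 mouse, 45 to 117 (45 without MI 255, 71 without Healthy 239) and 19 to 42. For Rgs5-low against other VSMCs, DESeq2 and the split at 0 against at least 2 UMIs each gave 1 lower call, Cnn1, against 0, and with no replicate block 0 and 0. Fewer genes could be tested after thinning. The causes of the other shifts were not tested.

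No paired analysis was possible because healthy and MI mice share no numbers. Tests restricted to VSMCs with at most 1 UMI of endothelial genes were not run, since too few mice had enough of them, and the comparison by Rgs5 was not run without either of its mice. The 6 VSMCs of Healthy 228 and 10 of Healthy 240 limit what can be detected in genes of low level.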
